A study of Homo sapiens with 8 samples.

Results

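The genes described here are those of cholesterol and fatty acid synthesis with their SREBP and LXR regulators, listed by symbol as 46 genes, of which 45 had a row among the 17546 genes of the table (matched through Ensembl gene IDs) and SCD5 was not analysed here. By role they are 19 enzymes of the path from acetyl-CoA to cholesterol, 5 genes of SREBP and its regulators, 3 of sterol transport, 5 of LXR and its targets, 11 of fatty acid synthesis, elongation and desaturation, and 3 acyl-CoA ligase and lipin genes. The 19, called cholesterol enzymes below, include GGPS1, which branches off that path. RNA was measured in H1 cells, an established human embryonic stem cell line, grown on Matrigel in defined media. The NAT10 knockdown group (4 libraries) carried a lentivirus with GFP and an shRNA that targets NAT10, an acetyltransferase that makes N4-acetylcytidine in RNA. The control group (4 libraries) carried the same kind of GFP lentivirus with a negative control shRNA. Both groups were held for 48 h after transduction, enriched for GFP-positive cells and then grown on in TeSR-E8 medium with puromycin at 0.5 ug/ml. The labels name no rescue and do not give the number of hairpins, so an effect of a hairpin on RNAs other than NAT10 cannot be told apart from an effect of NAT10. They also do not say whether libraries of the same group stem from different cultures; p-values here thus measure only how libraries vary, which may be technical.

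Cells make cholesterol from acetyl-CoA by the mevalonate pathway, which first builds isoprenoid units, then squalene and then sterols. The SREBP transcription factors wait in the endoplasmic reticulum bound to SCAP; when sterols are scarce they are cut free and raise the genes of cholesterol and fatty acid synthesis, usually together with NF-Y and Sp1 on the same promoters, whereas INSIG proteins hold SCAP back when sterols are plentiful. LXR nuclear receptors answer to oxysterols, which accumulate with cholesterol, and raise genes of sterol efflux.

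All values are normalized reads, meaning the reads of a gene after division by the size factor of its library. Libraries held 16207254 to 16305014 reads in knockdown and 15574631 to 16045882 in control cells, and a count of 0 would have allowed up to 0.193 CPM in the shallowest (3 counts, counting error only). NAT10 had 1647, 1592, 1625 and 1644 normalized reads in knockdown libraries 1 to 4, against 2207, 2285, 2048 and 2173 in controls 1 to 4. All 4 knockdown libraries lay below all 4 controls, and the mean was 25.3% lower (two-sided exact permutation p = 0.0286, the smallest that 4 against 4 allows). Of the embryonic stem cell markers, 12 of 12 were measured, 9 were higher and 0 lower in knockdown (adjusted p under 0.05, limma). Among all genes 32.3% were higher and 32.4% lower. POU5F1, NANOG and DPPA4 did not pass. The summed level of the 12 was 122800 to 126400 in knockdown and 95310 to 98480 in control libraries, of which DNMT3B alone held 49902 ± 857 and 36393 ± 997. POU5F1 itself was counted at only 17.2 ± 7.11 and 24.0 ± 5.63 (SD, n = 4 each), and whether the counting captured all of its reads was not tested. Genes listed as markers of other cells were also counted, which does not show that such cells were present. Of 8 fibroblast markers 5 were measured, and LUM, DCN and COL3A1 had no row. The 5 had summed levels of 20770 to 22400 in knockdown and 22050 to 22780 in controls, where THY1 was the largest part. Of these 5, COL1A1 (10990 ± 648 and 6843 ± 230.3), COL1A2 and PDGFRA were higher, THY1 was lower (7899 ± 260.4 and 12941 ± 342) and PDGFRB did not pass, with a median log2 fold change of 0.21. Of 6 neuroectoderm markers 2 were measured, OTX2 (725 ± 25.9 and 291 ± 6.66) and PAX6 (25.1 ± 2.05 and 2.42 ± 0.964). Both were higher, with sums of 717 to 783.5 in knockdown and 286.3 to 302.3 in controls. Of 8 mesoderm and endoderm markers only MIXL1 was measured (75.6 ± 14.4 and 34.9 ± 1.59), and of 6 trophoblast markers GATA3 (27.4 ± 2.62 and 7.01 ± 4.31) and KRT7 (79.0 ± 12.4 and 87.4 ± 13.5). Every gene of the table held 10 reads or more in at least 4 libraries. PAX6 and GATA3 met this only through the knockdown libraries, so their higher level there is tied to their having a row. The part of these markers' differences in the results below was not tested, and in bulk RNA fewer cells of a type and less RNA per cell cannot be told apart.

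Of the 45 measured genes, 27 were higher in knockdown at an adjusted p under 0.05, where 32.3% of all genes were, and 10 were lower, where 32.4% of all genes were (limma on log2(value + 1), Benjamini-Hochberg over 17546 genes). The remaining 8 did not pass. In either direction 64.7% of all genes passed, so passing alone is common in this comparison. The median log2 fold change was 0.27 over the 45 genes and 0.00 over all genes. With scaling by library totals alone these medians were 0.16 and -0.11, with 24 of the 45 genes higher and 14 lower, and 4079 of all genes higher and 7349 lower, so directions of small changes are relative to the scaling. At least 1.5-fold higher were 10 of the 45, against 9.4% of all genes, and at least 1.5-fold lower were 3, against 14.9%. The knockdown libraries all lay above the controls for 25 of the 45 genes, where 28.4% of all genes did so, and all below for 8, where 28.3% did so; 12 overlapped. In either direction 56.7% of all genes did not overlap. Together the 45 genes took 1.18% ± 0.0146 of normalized reads in knockdown and 0.974% ± 0.0101 in control libraries (SD, n = 4 each).

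**Figure D1:**
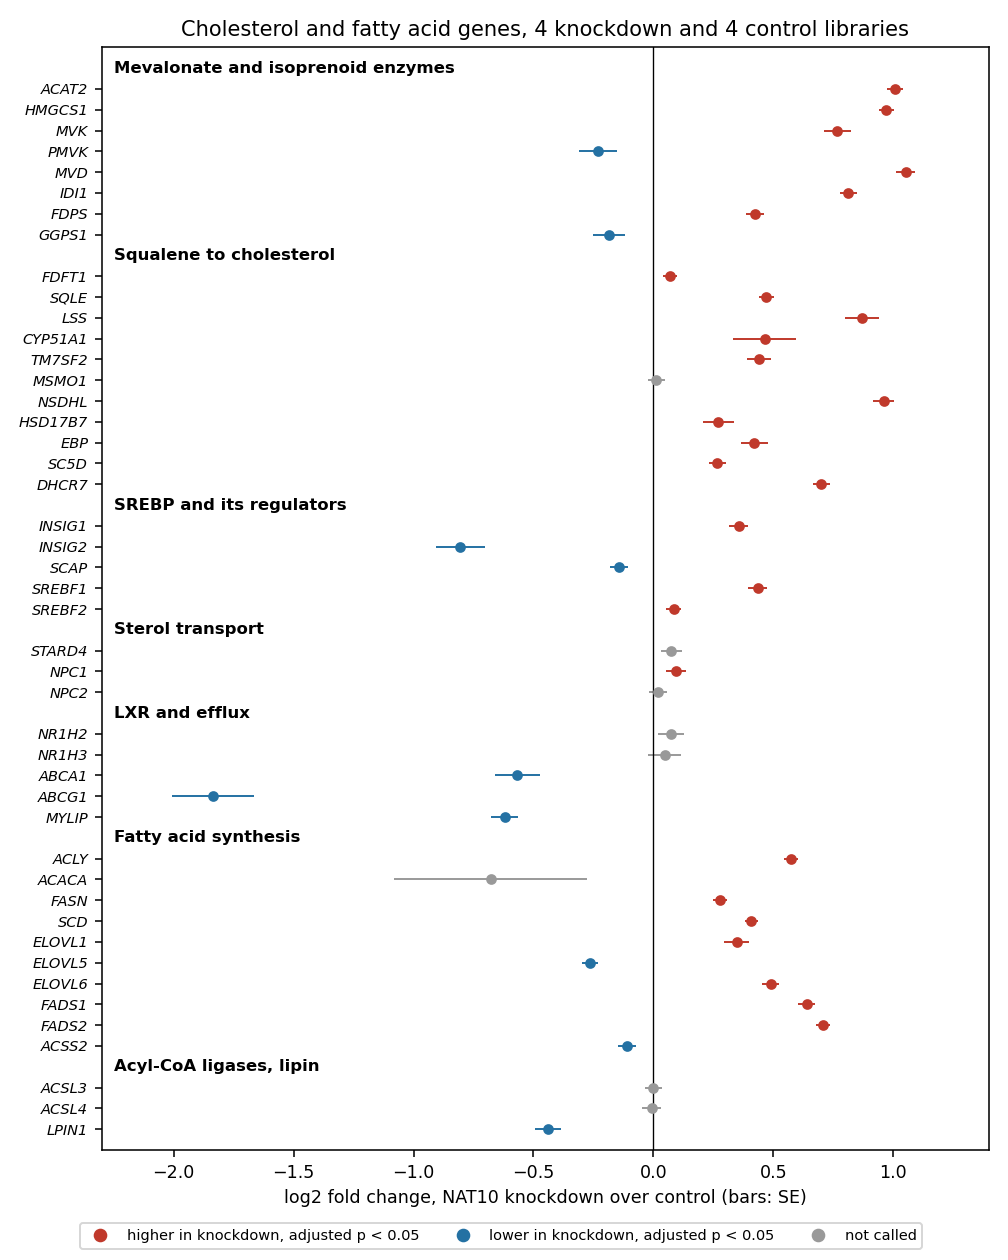
Log2 fold change of each of the 45 measured genes in NAT10 knockdown over control cells, grouped by role; points are limma estimates from 4 libraries per group, bars are standard errors, and colour marks an adjusted p under 0.05 in either direction. Enzymes of cholesterol synthesis lie mostly right of 0, up to 1.05 for MVD, and the LXR targets ABCA1, MYLIP and ABCG1 lie left of it, down to -1.84.

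The direction differed between roles. Of the 19 cholesterol enzymes, 16 were higher and 2 lower in knockdown (PMVK and the branch enzyme GGPS1), with a median log2 fold change of 0.46. Of the 10 measured fatty acid genes, 7 were higher and 2 lower (median 0.38). Of the 5 LXR genes, 0 were higher and 3 lower (median -0.57, or -0.26 among genes of at least 5 CPM, which leaves out ABCG1), and the SREBP regulators split into 3 higher and 2 lower. The 26 measured genes other than the cholesterol enzymes counted 11 higher, 8 lower and 7 not passing.

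**Figure D2:**
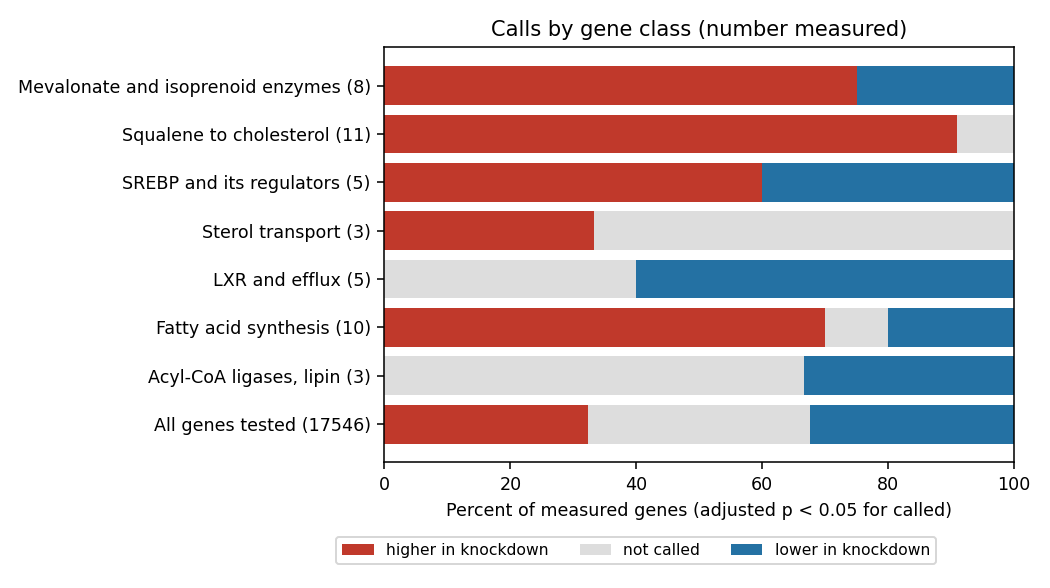
Percent of the measured genes in each role, and of all genes tested, that were higher in knockdown, lower in knockdown or not past an adjusted p of 0.05. The squalene to cholesterol enzymes hold 10 higher and 0 lower genes, whereas the LXR genes hold 0 higher and 3 lower.

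Promoter stretches are shown for some of the genes higher in knockdown, picked because they hold the NF-Y box outside annotated UTRs. Whether SREBP or NF-Y acts on them was not tested. RefSeq promoter windows (GRCh38.p14, 250 bases before to 50 after a start) were matched for 40 of the 45 genes, with 59 starts, and not for ABCG1, ACAT2, FASN, FDFT1 and SQLE. The NF-Y box CCAAT, sought on both strands, was in 21 of 30 starts (70%) of the genes higher in knockdown, in 4 of 15 (26.7%) of those lower and in 7 of 14 (50%) of those that did not pass. Among all 35116 starts of the table of promoters 34.6% held it, and among starts of measured genes 34.1% did for those higher and 35.1% for those lower in knockdown. Starts of the same gene overlap, so these shares are a description. MVD, the mevalonate decarboxylase gene, held 3 boxes in one stretch (GRCh38.p14 chr16:88663160-88663262, minus strand), and HMGCS1 (chr5:43313553-43313577, minus), NSDHL (chrX:152830915-152830939, plus), LSS (chr21:46228908-46228936, minus), DHCR7 (chr11:71448473-71448497, minus) and ACLY (chr17:41919029-41919099, minus) held those shown, with capitals marking CCAAT or its reverse complement, ATTGG. HMGCS1, NSDHL and DHCR7 held further boxes that are not shown, as did IDI1 and MVK.
MVD: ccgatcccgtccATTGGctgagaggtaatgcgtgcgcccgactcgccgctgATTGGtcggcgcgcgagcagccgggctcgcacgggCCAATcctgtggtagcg
HMGCS1: tttccttttgATTGGtagaagccgg
NSDHL: ccccgtctttATTGGgcaagatcac
LSS: cgcggcgctctgATTGGttgcgtgggcgt
DHCR7: ggctcctcgaCCAATcacggggcgc
ACLY: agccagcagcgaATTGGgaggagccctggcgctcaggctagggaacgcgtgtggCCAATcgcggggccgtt

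The box is not limited to genes that were higher in knockdown: MYLIP, an LXR target that was lower, held 2 (chr6:16128965-16129034, plus strand). The classical SREBP element, sought as TCACNCCAC on both strands, was in 1 of the 59 starts (1.69%), that of SREBF2 (chr22:41832960-41833015, plus), and in 1.13% of all starts; in the SREBF2 stretch capitals mark the element followed by an NF-Y box.
MYLIP: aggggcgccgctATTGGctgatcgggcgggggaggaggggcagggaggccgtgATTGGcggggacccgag
SREBF2: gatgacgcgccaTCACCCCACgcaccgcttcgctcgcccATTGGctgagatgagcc
The GC box GGGCGG, which Sp1 binds, was in 50 of the 59 starts (84.7%), against 45% of all starts and 64.3% of those of measured genes. It was in 90% of starts of the genes higher in knockdown, 80% of those lower and 78.6% of those that did not pass. The E-box CACGTG was in 7 (11.9%), against 7.26% and 8.88%, and the LXR element was in 0 of 59, against 0.0199% of all starts. A match is a match of letters and shows no binding.

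The first steps join acetyl-CoA units. ACAT2, the cytosolic acetoacetyl-CoA thiolase (ENSG00000120437, hg38 chr6:159760328-159779055, plus strand), had 4389.9, 4323, 4404 and 4583 normalized reads in knockdown libraries and 2228, 2106, 2208 and 2257 in controls. HMGCS1, the cytosolic synthase of HMG-CoA (ENSG00000112972, chr5:43289395-43313512, minus), had 10724, 10852, 10647 and 11211 in knockdown and 5439, 5697, 5582 and 5433 in controls. Every knockdown library held close to double the level of every control for both genes, 2.01-fold and 1.96-fold by the means, and the gap was many times the spread within a group. The log2 fold changes were 1.01 (SE 0.0343) for ACAT2 and 0.97 (SE 0.0302) for HMGCS1. On the opposite strand, exons of ACAT2 overlap SOD2-OT1 over 1458 bases (33.9% of the ACAT2 exon length) and SOD2 over 1141 bases (26.5%). They also overlap TCP1 over 397 bases (9.23%). SOD2-OT1 was counted at a mean of 10.2 and TCP1 at 4769, and SOD2 had no row. Of the HMGCS1 exon length 14.95% lies opposite AC114947.2, which had no row. The strand setting of the counting is not given in the sources used here.

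Of the steps from mevalonate to farnesyl diphosphate, most were higher and the second kinase was not. MVD, which makes isopentenyl diphosphate (chr16:88651935-88663161, minus), had 2793, 3047, 3212 and 2901 normalized reads in knockdown and 1469.6, 1430.1, 1447 and 1411 in controls, a log2 fold change of 1.05 (SE 0.0386, adjusted p = 4.63e-29), the largest increase of the 45. MVK, mevalonate kinase, had 656, 666, 628 and 579 in knockdown and 363, 375, 359 and 386 in controls (log2 fold change 0.77). These groups were far apart, with no library near the other group. PMVK, the kinase that acts between these enzymes, had 205, 175, 188 and 184 in knockdown and 203, 225, 215 and 238 in controls. Its groups overlapped, with knockdown library 1 above control 1, and the log2 fold change was -0.23 (adjusted p = 0.0100, and 0.0502 without control library 4). IDI1, which turns isopentenyl diphosphate into its isomer, had 3674 ± 81.9 in knockdown and 2094 ± 96.2 in controls (log2 fold change 0.81). Of the IDI1 exon length 14.8% lies opposite IDI2-AS1. FDPS, farnesyl diphosphate synthase, had 2433 ± 106 and 1813 ± 35.5 (0.42); some of its exon length (18.6%) lies opposite RUSC1-AS1, and the pseudogene FDPSP1 was counted at a mean of 66.3.

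GGPS1 stands at the branch where farnesyl diphosphate leaves the sterol path to become geranylgeranyl diphosphate. It had 314, 384, 328 and 333 normalized reads in knockdown and 353, 387, 439 and 368 in controls. The groups overlapped, and the log2 fold change of -0.18 (adjusted p = 0.0156) did not pass without control library 3 (-0.12, adjusted p = 0.133) or without knockdown library 1 (adjusted p = 0.0718); with library totals it was -0.29. Of its exon length 37.3% is shared with TBCE on the same strand, so reads there cannot be assigned to one of them. The mevalonate enzymes together took 0.154% ± 0.00178 of normalized reads in knockdown and 0.0912% ± 0.00152 in control libraries.

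**Figure D3:**
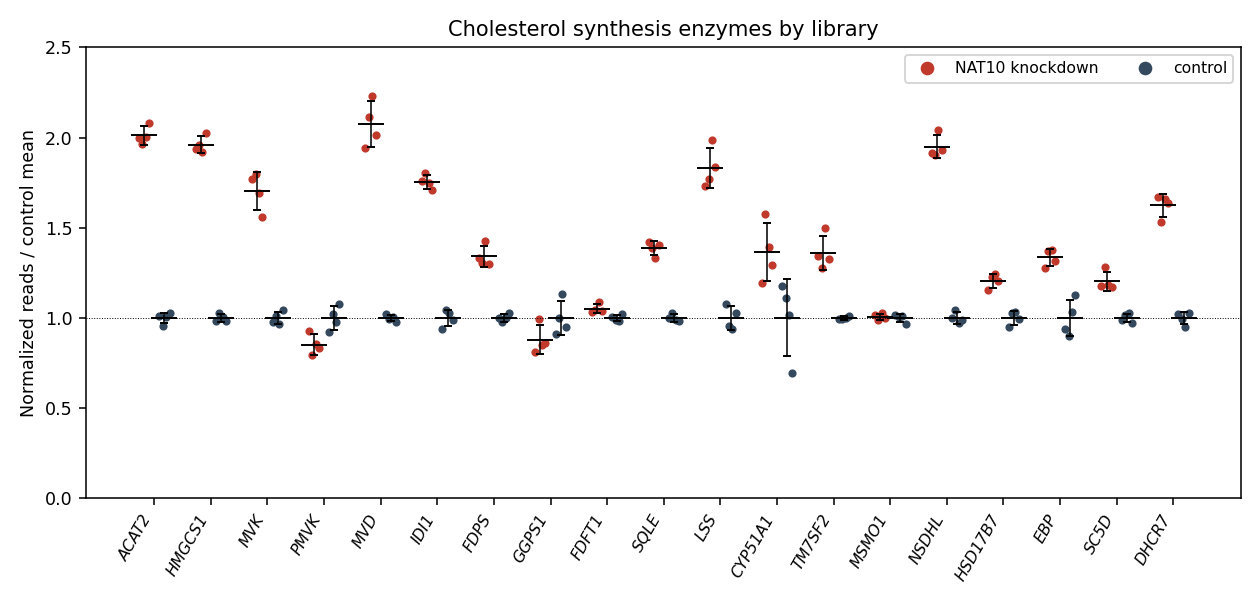
Normalized reads of the 19 cholesterol enzymes in each library, divided by the mean of the 4 controls of the same gene; points are libraries, knockdown left of control, and bars are mean and SD. The knockdown points of ACAT2, HMGCS1, MVD and NSDHL lie near 2, those of PMVK and GGPS1 reach below 1, and those of FDFT1 and MSMO1 lie close to the controls.

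In the steps from farnesyl diphosphate to cholesterol, 10 of 11 genes were higher and 0 lower. The median log2 fold change of the 11 was 0.44, against 0.79 in the mevalonate steps. The ranges overlapped (0.01 to 0.96 and -0.23 to 1.05), and the difference was not tested. FDFT1, squalene synthase and the first enzyme committed to sterols, had 12342, 12476, 13008 and 12459.8 normalized reads in knockdown and 12069.9, 11819, 11763 and 12239 in controls. The groups were apart by little, and the log2 fold change of 0.07 (adjusted p = 0.0289) became -0.04 with scaling by library totals, so its direction rests on the scaling. HMGCS1 and FDFT1 therefore differed in their ratio, which does not depend on scaling: HMGCS1 reads per FDFT1 read were 0.869, 0.870, 0.819 and 0.900 in knockdown libraries and 0.451, 0.482, 0.475 and 0.444 in controls. The ratio was chosen after the values were seen and is given without a test. SQLE, squalene epoxidase, had 5966 ± 163 in knockdown and 4303 ± 91.3 in controls (log2 fold change 0.47).

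LSS, which folds oxidosqualene into lanosterol, had 341, 349, 391 and 362 normalized reads in knockdown and 213, 188, 185 and 202 in controls (log2 fold change 0.87, SE 0.0708). No library of one group came near the other. Lanosterol is then demethylated by CYP51A1, TM7SF2, MSMO1, NSDHL and HSD17B7. NSDHL, the sterol 4-alpha-carboxylate dehydrogenase (chrX:152830967-152869729, plus), had 1312, 1305, 1400.0 and 1325 in knockdown and 686, 715, 665 and 676 in controls, a log2 fold change of 0.96 (SE 0.0435). MSMO1, the C-4 methyl oxidase that acts just before it, had 2328, 2267, 2352 and 2295 in knockdown and 2325, 2309, 2323 and 2213 in controls. MSMO1 thus overlapped between the groups (log2 fold change 0.01, adjusted p = 0.797) next to a gene that came close to doubling; with library totals it was -0.10 (adjusted p = 0.0134).

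The others of this stretch moved by less. TM7SF2, a sterol C-14 reductase, had 767 ± 53.5 normalized reads in knockdown and 563 ± 4.79 in controls (log2 fold change 0.44), and HSD17B7, the 3-ketosteroid reductase, had 343 ± 11.2 and 284 ± 10.7 (0.27, or 0.16 with library totals). CYP51A1, the lanosterol 14-alpha-demethylase, was low, with 84.4, 111, 98.5 and 91.3 in knockdown and 83.1, 78.3, 71.8 and 49.1 in controls. Its groups were barely apart (log2 fold change 0.46, adjusted p = 0.00208, or 0.30 without control library 4). Of its exon length 79.3% lies in a read-through gene on the same strand, AC000120.2, and pseudogenes CYP51A1P1 and CYP51A1P2 were counted at means of 49.5 and 49.9, so its level is uncertain.

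The last steps shift and reduce double bonds of the sterol ring. EBP, the sterol isomerase, had 668 ± 24.3 normalized reads in knockdown and 500.3 ± 50.6 in controls (log2 fold change 0.42), and SC5D, the C-5 desaturase, had 3605 ± 160.4 and 2994 ± 72.6 (0.27, or 0.16 with library totals). DHCR7, which makes cholesterol from 7-dehydrocholesterol (chr11:71428193-71452868, minus), had 5315, 4868, 5279 and 5199.5 in knockdown and 3248, 3167, 3024 and 3272 in controls, a log2 fold change of 0.70 (SE 0.0344, adjusted p = 7.90e-24). All 3 were higher in every knockdown library than in any control. The 19 enzymes together took 0.353% ± 0.00377 of normalized reads in knockdown and 0.266% ± 0.00132 in control libraries.

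SREBP and its regulators moved in different directions. SREBF1, which encodes SREBP-1 and whose isoforms the table does not separate, had 2654, 2459.6, 2694 and 2866 normalized reads in knockdown and 2024, 2015, 1932 and 1918 in controls. Every knockdown library was higher (log2 fold change 0.43, SE 0.0386, adjusted p = 4.40e-14). SREBF2, which encodes the SREBP most tied to cholesterol synthesis, had 6853, 6489, 6987 and 6905 in knockdown and 6583, 6417, 6316 and 6347 in controls. Knockdown library 2 lay within the controls, and the log2 fold change of 0.09 (adjusted p = 0.0147) was -0.02 with library totals and did not pass without knockdown library 3 (adjusted p = 0.0540). SCAP, the escort of SREBP, had 1822, 1767, 1920.2 and 1723 in knockdown and 2049, 1929, 2051 and 1957 in controls, all lower in knockdown by a small amount (log2 fold change -0.14, adjusted p = 0.00107, or -0.25 with library totals).

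The INSIG genes, whose proteins both retain SCAP, went opposite ways. INSIG1, itself a textbook SREBP target, had 1591, 1604, 1611 and 1545 normalized reads in knockdown and 1247, 1205, 1256 and 1254 in controls (log2 fold change 0.36, SE 0.0386). INSIG2 had 95.7, 104, 84.3 and 124 in knockdown and 163, 170.5, 194 and 183 in controls (log2 fold change -0.81, SE 0.102). The groups did not overlap for either gene. Reads of INSIG1 per read of INSIG2 averaged 15.9 ± 2.77 in knockdown and 7.01 ± 0.488 in controls (SD, n = 4 each), a ratio also chosen after the values were seen. INSIG1 was the more abundant of the pair also per length, with 435 and 25.8 normalized reads per kb of exon in knockdown and 339.9 and 45.0 in controls.

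**Figure D4:**
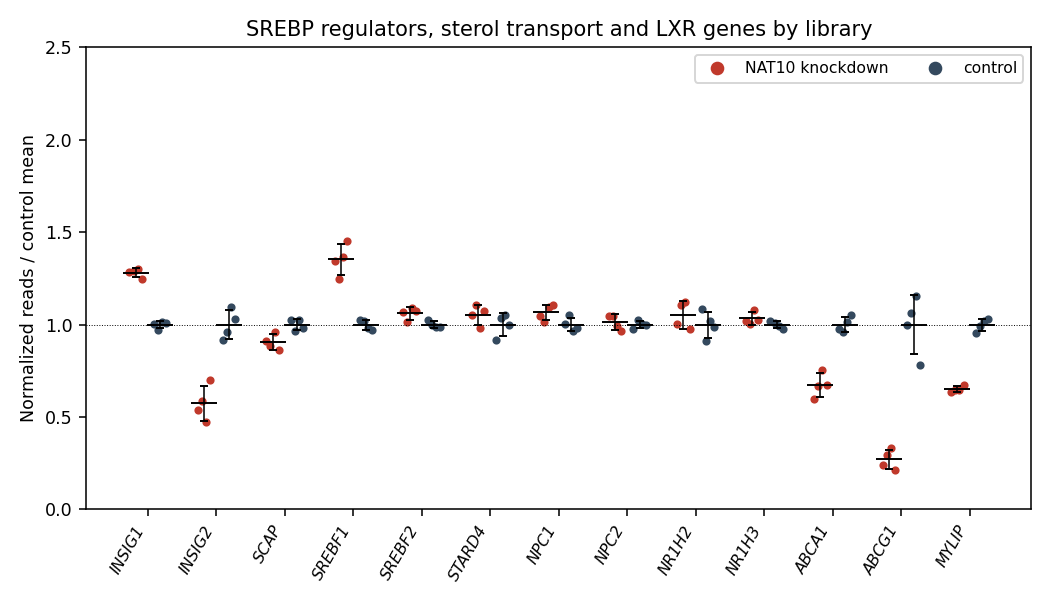
Normalized reads of the SREBP regulators, sterol transport genes and LXR genes in each library, divided by the mean of the 4 controls of the same gene; points are libraries, knockdown left of control, and bars are mean and SD. INSIG1 and SREBF1 lie above 1 in knockdown, INSIG2, ABCA1, ABCG1 and MYLIP lie below 0.8, and the 3 transport genes overlap their controls.

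Sterol transport differed little. STARD4, a cytosolic sterol carrier, had 1301 ± 67.2 normalized reads in knockdown and 1235 ± 74.8 in controls (adjusted p = 0.129), and NPC2, a soluble lysosomal sterol-binding protein, had 1991 ± 81.6 and 1964 ± 38.6 (adjusted p = 0.668). NPC1, the lysosomal membrane protein that takes sterol from NPC2, had 1305 ± 51.1 and 1224 ± 45.5, with overlapping groups. Its log2 fold change of 0.09 passed narrowly (adjusted p = 0.0443), did not pass with edgeR, DESeq2 or TMM scaling, and was -0.02 with library totals. The adjusted p of NPC1 ranged from 0.0169 to 0.806 over 17 alternatives.

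The LXR receptors did not pass, and their targets ABCA1, ABCG1 and MYLIP were lower. NR1H2, which encodes LXR-beta, had 634 ± 44.3 normalized reads in knockdown and 603 ± 42.4 in controls (adjusted p = 0.242), and NR1H3, which encodes LXR-alpha, had 252 ± 7.96 and 244 ± 4.63 (adjusted p = 0.576). ABCA1, which exports cholesterol to lipid-poor apolipoproteins (chr9:104781002-104928237, minus), had 102, 114, 129 and 115 in knockdown and 166, 164, 173 and 179 in controls, a log2 fold change of -0.57 (SE 0.0932, adjusted p = 6.04e-07). ABCG1, which exports sterol to HDL (chr21:42199689-42297244, plus), had 18.5, 22.5, 25.4 and 16.4 in knockdown and 76.4, 81.3, 88.1 and 59.7 in controls. The knockdown mean of ABCG1 was 0.271 of the control mean, with a log2 fold change of -1.84 (SE 0.171, adjusted p = 1.80e-13), the largest change of the 45 in either direction. MYLIP, an E3 ubiquitin ligase that removes lipoprotein receptors (chr6:16129125-16148248, plus), had 332, 339, 338 and 352 in knockdown and 501, 519, 534 and 539 in controls (log2 fold change -0.62, SE 0.0569). The groups were apart for all 3 targets. SREBF1, also a textbook LXR target, was higher, so the direct LXR targets in the list did not all move one way. LXR activity was not measured.

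Fatty acid synthesis begins with cytosolic acetyl-CoA. ACLY, which splits citrate to supply it, had 12763, 11967, 12372 and 12804 normalized reads in knockdown and 8682, 8573, 8011 and 8252 in controls (log2 fold change 0.57, SE 0.0307, adjusted p = 2.36e-22). ACSS2, which makes acetyl-CoA from acetate instead, had 1579, 1546, 1593 and 1657 in knockdown and 1717, 1712, 1692 and 1748 in controls. It was slightly lower in every knockdown library (log2 fold change -0.11, adjusted p = 0.0107, or -0.22 with library totals), while ACLY was higher in every one. ACLY reads per ACSS2 read were 7.73 to 8.08 in knockdown and 4.72 to 5.06 in controls, a pair chosen after the values were seen.

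ACACA, acetyl-CoA carboxylase 1, which makes malonyl-CoA, was counted at very few reads, with 19.6, 21.4, 25.4 and 9.23 normalized reads in knockdown and 45.4, 35.7, 34.5 and 12.5 in controls. The library numbered 4 was the lowest of both groups, and the groups overlapped (log2 fold change -0.68, SE 0.403, adjusted p = 0.165). Without control library 4 the change was -1.06 (adjusted p = 2.07e-04), and without knockdown library 4 the change was -0.39 (adjusted p = 0.293). Whether the counting captured all reads of ACACA was not tested. FASN, the fatty acid synthase that uses malonyl-CoA, had 33145, 31116, 34441 and 34472 in knockdown and 28759, 27448, 26811 and 26766 in controls (log2 fold change 0.28, SE 0.0295, or 0.17 with library totals). ACACA was the lowest of the 45 genes per kb of exon, at 1.45 in knockdown and 2.46 in controls, and FASN the second highest, at 3556 and 2931.

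**Figure D5:**
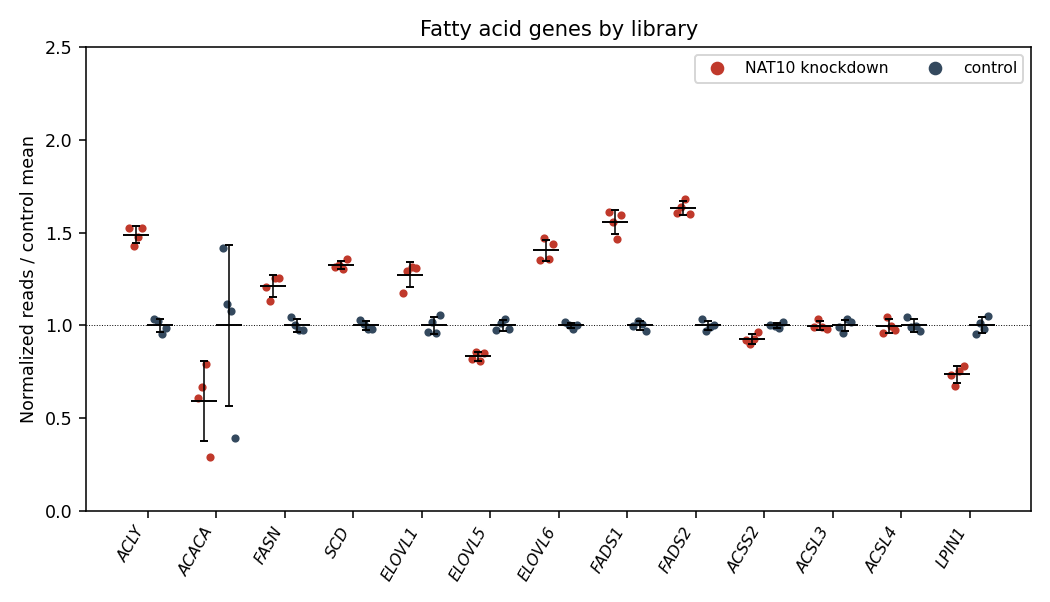
Normalized reads of the fatty acid synthesis, acyl-CoA ligase and lipin genes in each library, divided by the mean of the 4 controls of the same gene; points are libraries, knockdown left of control, and bars are mean and SD. FADS1, FADS2 and ACLY lie highest in knockdown, ELOVL5 and LPIN1 lie below 1, and the wide ACACA points rest on fewer than 50 reads per library.

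Of the desaturases, SCD, FADS1 and FADS2 were higher, and FADS3, a related gene outside the 46, was slightly lower (991 ± 73.4 normalized reads in knockdown and 1088 ± 29.2 in controls, log2 fold change -0.14, adjusted p = 0.00782). SCD, the delta-9 desaturase that makes monounsaturated fatty acids, had 37354, 37653, 37016 and 38449 normalized reads in knockdown and 29248, 28592, 27755 and 27785 in controls (log2 fold change 0.41, SE 0.0263). It had the highest level of the 45 genes per kb of exon in both groups, 7016 ± 114 in knockdown and 5286 ± 134 in controls; its pseudogene SCDP1 was counted at a mean of 534. FADS2, the delta-6 desaturase of polyunsaturated fatty acids, had 17084, 17405, 17862 and 16995 in knockdown and 10988, 10331, 10549.5 and 10624 in controls (0.71, SE 0.0287, adjusted p = 3.23e-27). FADS1, the delta-5 desaturase beside it on chromosome 11, had 4305, 4165, 3911 and 4253 in knockdown and 2659.8, 2738, 2696 and 2582 in controls (0.64, SE 0.0348). The groups were well apart for both FADS genes, whose exons overlap on opposite strands over 490 bases.

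The elongases split. ELOVL6, which lengthens C16 fatty acids made by FASN, had 3222 ± 135 normalized reads in knockdown and 2294 ± 34.8 in controls (log2 fold change 0.49), and ELOVL1, which makes very long saturated chains, had 675 ± 35.9 and 530.1 ± 24.3 (0.35). ELOVL5, which lengthens the polyunsaturated chains between the FADS2 and FADS1 steps, had 3289, 3449.9, 3261 and 3429 in knockdown and 3920.5, 4084, 4158 and 3952 in controls. It was lower in every knockdown library (-0.26, SE 0.0336, adjusted p = 1.85e-09), opposite to both desaturases of its path. FADS1 reads per ELOVL5 read were 1.24 ± 0.0499 in knockdown and 0.663 ± 0.0142 in controls, a pair chosen after the values were seen.

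The acyl-CoA ligases, which activate fatty acids for use, differed by less than their spread: ACSL3 had 2811 ± 70.3 normalized reads in knockdown and 2812 ± 88.4 in controls (adjusted p = 0.989), and ACSL4 had 1731 ± 66.2 and 1740.0 ± 57.8 (adjusted p = 0.879). With library totals both passed as lower, by -0.11 and -0.12. LPIN1, a phosphatidate phosphatase that makes diacylglycerol, had 453, 417, 466 and 483 in knockdown and 587, 625, 606 and 649 in controls. It was lower in every knockdown library (log2 fold change -0.44, SE 0.0548, adjusted p = 9.53e-10). LPIN1 is also known as an SREBP target, and SREBP activity was not measured.

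By level per kb of exon, SCD, FASN, FDFT1, ACLY and HMGCS1 were the highest 5 of the 45 in both groups, in this order. FDFT1, at 2417 ± 57.1, ACLY, at 2392 ± 75.1, and HMGCS1, at 2309 ± 53.1, lay within about 2 SD of each other in knockdown; in controls, at 2302 ± 42.7, 1606 ± 58.7 and 1178 ± 26.9, they were apart. ACAT2 went up the order, ranking 9 in knockdown and 14 in controls, and ELOVL5 down it, ranking 11 in knockdown and 6 in controls. ABCA1, ABCG1 and ACACA were the lowest in both.

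Neighbouring pathways were read from lists chosen by function. Of 13 other genes of SREBP processing and its cofactors, 5 were higher and 3 lower (median log2 fold change 0.07). TMEM97, an endoplasmic reticulum sterol-responsive protein, had 5089 ± 119 normalized reads in knockdown and 2807 ± 82.8 in controls (0.86), and NFYB, a subunit of NF-Y, had 1106 ± 47.7 and 866 ± 29.8 (0.35). The other cofactors in the list did not move one way: NFYC was higher (0.33), NFYA did not pass (-0.07), and SP1 was lower (-0.25, adjusted p = 4.76e-07). Of 13 genes that use isoprenoids for dolichol, ubiquinone and protein prenylation, 8 were higher and 3 lower (median 0.29), with the prelamin A protease ZMPSTE24 at 0.71 and the dolichol synthase subunit DHDDS at 0.46. Of 12 genes of sterol storage and transfer, 2 were higher and 6 lower (median -0.10). GRAMD1C, which like GRAMD1A moves sterol from the plasma membrane to the endoplasmic reticulum, had 25.7, 18.4, 25.4 and 42.1 in knockdown and 110.2, 116, 116 and 98.2 in controls (adjusted p = 2.45e-14), and GRAMD1A changed by -0.40. Both were lower in all 4 knockdown libraries than in any control; their relative GRAMD1B had 457 ± 5.14 and 428 ± 25.0 and did not pass (adjusted p = 0.130).

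Of 7 further measured LXR partners and targets, 2 were higher and 1 lower (median 0.02). ABCG4, a sterol exporter related to ABCG1, had 23.0 ± 3.24 normalized reads in knockdown and 53.3 ± 10.8 in controls (log2 fold change -1.17), and the LXR partner RXRA changed by 0.27. SMPDL3A was higher (43.2 ± 6.20 and 32.9 ± 2.67, log2 fold change 0.38, adjusted p = 0.0458), and LPCAT3 (-0.07) and PLTP (0.02) did not pass. Of 16 other fatty acid synthesis and elongation genes, 4 were higher and 5 lower (median 0.00), with ACACB, acetyl-CoA carboxylase 2, at 205 ± 19.4 and 337 ± 18.5 (-0.71) and the dehydratase HACD3 at -0.35. These further genes were thus about as often lower as higher, whereas 7 of the 10 listed above were higher; the difference was not tested. Of 15 measured glycerolipid genes, 9 were higher and 3 lower (median 0.22), led by GPAM, which adds the first acyl chain to glycerol-3-phosphate, at 719, 812, 811 and 809 in knockdown and 432, 456, 395 and 447 in controls (0.86), and PCYT2, of phosphatidylethanolamine synthesis, at 0.60. Of 15 fatty acid oxidation genes, 4 were higher and 5 lower (median -0.06); CPT1A, which lets acyl chains into mitochondria, had 250.3 ± 30.8 and 414 ± 31.0 (-0.73), and HADH changed by -0.46. Among all genes 32.3% were higher and 32.4% lower, and no list was tested as a set.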

How the data were processed

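Per the submitters' processing notes, which give no order, the poly(A) libraries were processed on hg38 with DESeq2 1.26.0, featureCounts 2.0.3, SAMtools 1.12, HISAT2 2.2.1 and fastp 0.21.1; for annotation and strand the sources used here give nothing. The deposited values are a signal, namely the reads of a gene over the size factor of its library: 100% were whole multiples of a step within 1e-06 of a read. Of each gene at least 4 libraries held 10 reads or more. Differences were tested with limma 3.58.1 in R 4.3.3 (trended, robust) on log2(value + 1), group as the only term, with Benjamini-Hochberg adjustment over 17546 genes at 0.05; such fold changes understate low genes. The fit was also run on simulated data with far fewer changed genes than passed here. That run gives no error rate for these data. Alternatives were edgeR 4.0.16 (17410 genes) and DESeq2 1.42.0 on recovered reads, other scalings, pseudocounts and filters, a replicate block and leaving out each library. Pairs of libraries gave a chi-square per gene of 1.79 to 2.52 inside a group and 28.1 to 29.1 across groups, and each counted as 1 sample. Positions, exon lengths and overlaps came from GENCODE 29 (GRCh38), promoters from RefSeq. Members and lists were chosen with earlier results of these data known. All 46 members are accounted for. Of each other list the 2 genes with the smallest adjusted p are named. FADS3, GRAMD1B, SMPDL3A, LPCAT3, PLTP, NFYA, NFYC and SP1 were named after their values were seen.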

Additional observations from a re-analysis of the deposited data

Results flagged for a closer look

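In 92 groups of 4 libraries (the members and NAT10, in each group) the gap of the highest or lowest library to its nearest neighbour was divided by the group's range and set against Dixon's 95% critical value; 3 groups passed it, and chance gives about 1 in 20. ELOVL1 had 622 normalized reads in knockdown library 1, where the other knockdown libraries had 686 to 698. SC5D had 3845 in knockdown library 2, where the others had 3510.1 to 3534. MSMO1 had 2213 in control library 4, where the other controls had 2309 to 2325.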

How the results depend on the processing

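Over 17 alternatives, 729 of 780 values of single genes kept their direction and their side of the threshold. Another 19 kept their direction but no longer passed, 7 kept it and newly passed, and 25 changed sign. Some of the 25 also changed side: with library totals FDFT1, SREBF2 and NPC1 no longer passed, while MSMO1 and NPC2 newly passed as lower. All sign changes were in genes near 0. With library totals the median of all genes moved to -0.11 (4079 higher, 7349 lower) and that of the 45 genes to 0.16, and the log2 fold changes became -0.0385 for FDFT1, -0.0976 for MSMO1, -0.0234 for SREBF2, -0.0332 for STARD4, -0.0156 for NPC1, -0.0894 for NPC2, -0.0357 for NR1H2 and -0.0618 for NR1H3. With totals without mitochondrial genes they were -0.0354 for FDFT1, -0.0944 for MSMO1, -0.0203 for SREBF2, -0.0301 for STARD4, -0.0124 for NPC1, -0.0863 for NPC2, -0.0326 for NR1H2 and -0.0587 for NR1H3. Under both, 1 squalene to cholesterol gene, 1 sterol transport gene and 3 acyl-CoA ligase and lipin genes were lower, 0 sterol transport genes were higher, and 24 of the 45 genes were higher and 14 lower. Leaving out 1 library, ACSL3 ranged from -0.0194 to 0.0152, ACSL4 from -0.0323 to 0.0149 and MSMO1 from -0.00569 to 0.0203, the lower mevalonate genes numbered 1 to 2 and the higher sterol transport genes 0 to 1. With edgeR, DESeq2 and TMM 0 sterol transport genes were higher. FDFT1 did not pass with edgeR (adjusted p = 0.0686). Replicate numbers did not pair the libraries (correlations of same-numbered deviations between -0.133 and -0.0107); with a replicate block 25 of the 45 genes were higher and 11 lower, 0 sterol transport genes were higher, FDFT1 had an adjusted p of 0.0731 and ACACA passed (adjusted p = 0.00536). Among genes of at least 5 CPM 4692 were higher and 3850 lower (5667 and 5680 over all genes). The cause of these differences was not tested. ACACA, ABCG1 and CYP51A1 rest on few reads, and why ACACA is counted so low was not tested.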
